A study of Danio rerio with 24 samples.

Results

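The genes of sugar catabolism and storage examined here are those of glycolysis, of glycogen breakdown and synthesis, and of glucose transport in zebrafish (Danio rerio) skeletal muscle. They were picked by a rule on gene names, which was set with earlier results of these data known. The names cover hexokinases, glucose phosphate isomerases, all names starting with pfk, aldolases, the enzymes from triose phosphate isomerase to pyruvate kinase, fructose bisphosphatases, gpd1 genes, glycogen phosphorylases, phosphorylase kinase subunits, glycogen synthases, glycogenins, branching enzymes, UDP-glucose pyrophosphorylases, phosphoglucomutases and the slc2a sugar transporters. Lactate dehydrogenases were left out by that rule. Of 31953 gene IDs in the authors' count table, 89 matched. The names of 4 of these only resemble the families: pygo1 and pygo2 encode pygopus proteins of Wnt signalling, pgam5 a mitochondrial phosphatase and pkmyt1 a cell cycle kinase. The other 85 are enzymes, enzyme subunits and transporters. No gene was named agl, the glycogen debranching enzyme.

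The muscle came from fish labelled 4 months old, in 3 groups: untrained wild-type (untrained_WT), wild-type put through long-term exercise (trained_WT) and, without training, transgenic with the genotype written actc1b:PGC1alpha (untrained_TG). The coactivator PGC1alpha switches on genes for new mitochondria, and the genotype is written with the name of a muscle actin gene, actc1b, in front, as for a construct driven from its promoter. All 3 groups were labelled with the same tissue and age, and no transgenic fish were trained. The labels do not give the species of the PGC1alpha insert, the number of transgenic lines, the training schedule or whether a sample was 1 fish or a pool. They describe 24 samples, and 21 libraries, 7 per group, were analysed here. Since nothing says that the samples of a group are separate fish, p-values measure only the spread between these samples, which may be technical.

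Glycolysis splits glucose to pyruvate in the cytosol, and fast muscle fibres use it, with their glycogen store, to make ATP during short intense work. Flux is set largely at hexokinase and at phosphofructokinase, which fructose 2,6-bisphosphate, made and removed by the PFKFB enzymes, switches on, while glycogen is opened by glycogen phosphorylase under the control of phosphorylase kinase. Zebrafish carry many of these genes as a and b duplicates, and the roles given below are those of the mammalian enzymes unless stated otherwise.

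The libraries held between 42.8 and 79.2 M counts assigned to genes. Mitochondrially encoded genes took 10.5% ± 2.38 (SD, n = 7) of counts in untrained_WT and 46.8% ± 2.45 in untrained_TG. Levels are given as CPM, the counts scaled to a library size adjusted by TMM, which lessens how far this share pushes all other genes down. The summed level of 16 fast fibre markers was 58879 to 187555 CPM in untrained_WT, 116447 to 202415 in trained_WT and 29012 to 39032 in untrained_TG, and that of 10 slow fibre markers 2148 to 4815, 3753 to 6718 and 17103 to 27817. The lowest fast fibre sum among wild-type libraries was in untrained_WT replicate 7. Germ line markers summed to 72.1 CPM in untrained_WT replicate 3 and 41.0 in replicate 7, and to at most 12.1 in any other library. Zebrafish ppargc1a was at 28.1 ± 16.3 CPM in untrained_WT and 16.8 ± 8.16 in untrained_TG (log2 fold change -0.74, adjusted p = 0.168), which does not check the genotype labels because the count may not include the transgene.

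Summed over the 85 enzymes and transporters, these genes took 3.71% to 6.84% of all gene counts in untrained_WT libraries, with a mean of 5.46% ± 1.32 (SD, n = 7). The share was 5.36% to 8.72% in trained_WT, with a mean of 6.79% ± 1.08, and 1.06% to 1.53% in untrained_TG, with a mean of 1.28% ± 0.164. Every transgenic library lay below every wild-type one, while the trained and untrained wild-type ranges overlapped. With the mitochondrially encoded genes taken out of the total, the transgenic mean was 2.41% ± 0.232, against 6.09% ± 1.38 in untrained_WT and 7.65% ± 1.19 in trained_WT, and the transgenic libraries were still the lowest. These sums are dominated by a few genes and do not describe all 85 alike. On average over the libraries, gapdh held 1575110 counts, aldoaa 601434 and eno3 325687, and the next gene, pkmb, 127212. The median log2 fold change of the 81 genes tested was -0.47 in untrained_TG. In bulk muscle RNA, fewer cells of a type and less RNA per cell cannot be told apart.

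**Figure D1:**
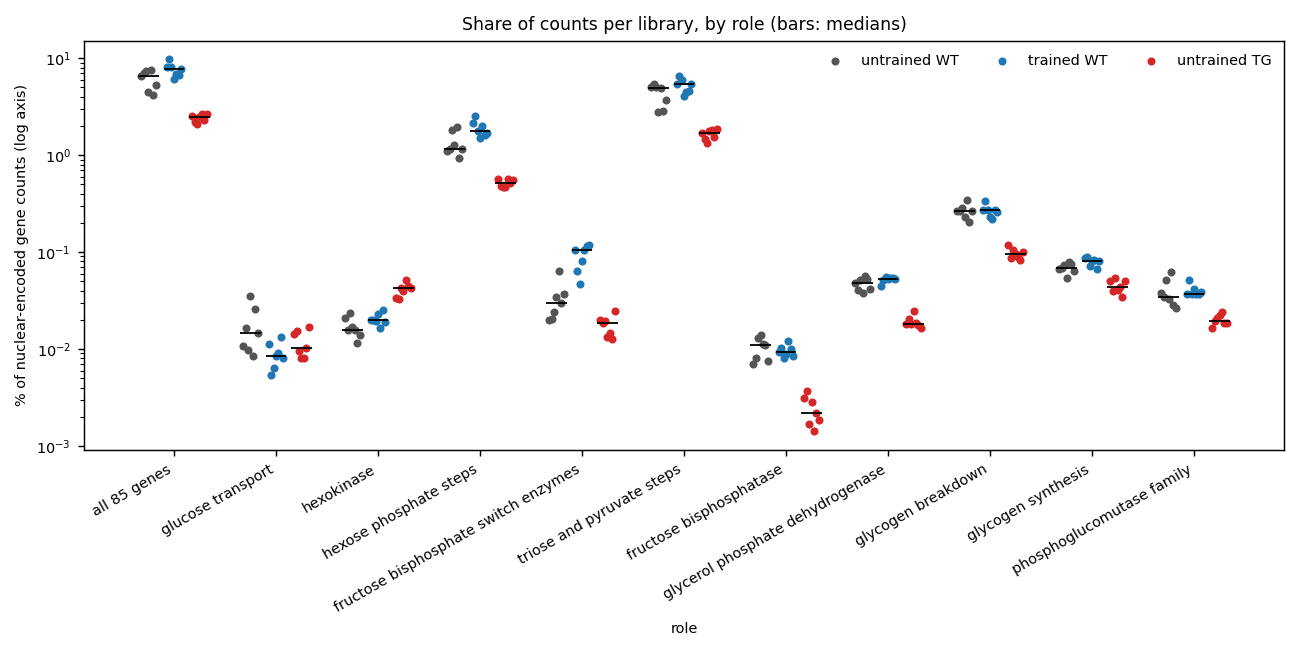
Percent of nuclear-encoded gene counts (log axis) taken by the 85 enzymes and transporters and by each role, 1 point per library (7 per group) with a black bar at the group median. The total falls from a median of 6.60% in untrained_WT to 2.49% in untrained_TG, whereas the hexokinases are the 1 role whose median is highest in untrained_TG.

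The roles did not all move alike. On the same nuclear-encoded total, the triose and pyruvate steps took a median of 4.91% in untrained_WT and 1.68% in untrained_TG, and the glycogen breakdown genes 0.263% and 0.0957%. Hexokinase genes went the other way, from a median of 0.0158% to 0.0422%, with no overlap between the 7 libraries of each group. Of all gene counts, mitochondrially encoded ones included, hexokinase genes took 0.0143% and 0.0217%, and those ranges overlapped. The PFKFB genes took 0.0300% in untrained_WT, 0.104% in trained_WT and 0.0185% in untrained_TG. These sums are a description and carry no test.

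Transgenic untrained muscle was compared with untrained wild-type muscle to see how the transgene changed these genes without training. Among the genes lower in untrained_TG were gapdh, aldoaa, eno3, pkmb, pygma and gys1, and among those higher were both hexokinase genes and the duplicates tpi1a, pygmb and gpd1a. A total of 85 of the 89 genes passed the filter on low counts, 81 of them enzymes and transporters, and a gene that is high in 1 group alone can pass through that group. The other 4 (slc2a1a, slc2a15a, gbe1a and a gene listed as PFKFB1 (1 of many)) averaged at most 6 counts per library. At an adjusted p under 0.05, 54 of 85 differed (63.5%), against 43.4% of all 18947 genes tested. Of these, 21 were higher (24.7%, background 18.3%) and 33 lower (38.8%, background 25.1%). The groups did not overlap for 11 higher genes (background 7.51% of all genes tested) and 13 lower ones (background 8.26%).

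Genes with more reads were called more often. The genes tested here had a median of 1279 counts per library and all genes tested 212. Where the mean reached 1000 counts, 38 of 44 of the genes examined here were called (86.4%), and 63.6% of all 3974 genes at that depth. The median log2 fold change of the 81 enzymes and transporters was -0.47, and that of all genes tested was -0.13. With library totals in place of TMM the median of all genes moved to -0.64, and the calls divided into 14 higher and 40 lower. The calls over all genes moved down too, with 9677 of 18947 genes called. With library totals, 15.9% of the calls over all genes were higher, and 25.9% of those in this set. With TMM these shares were 42.1% and 38.9%. With TMM and the mitochondrially encoded genes left out they were 48.3% and 42.6%. The median of all genes was then -0.04, and the calls in this set divided into 23 higher and 31 lower.

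**Figure D2:**
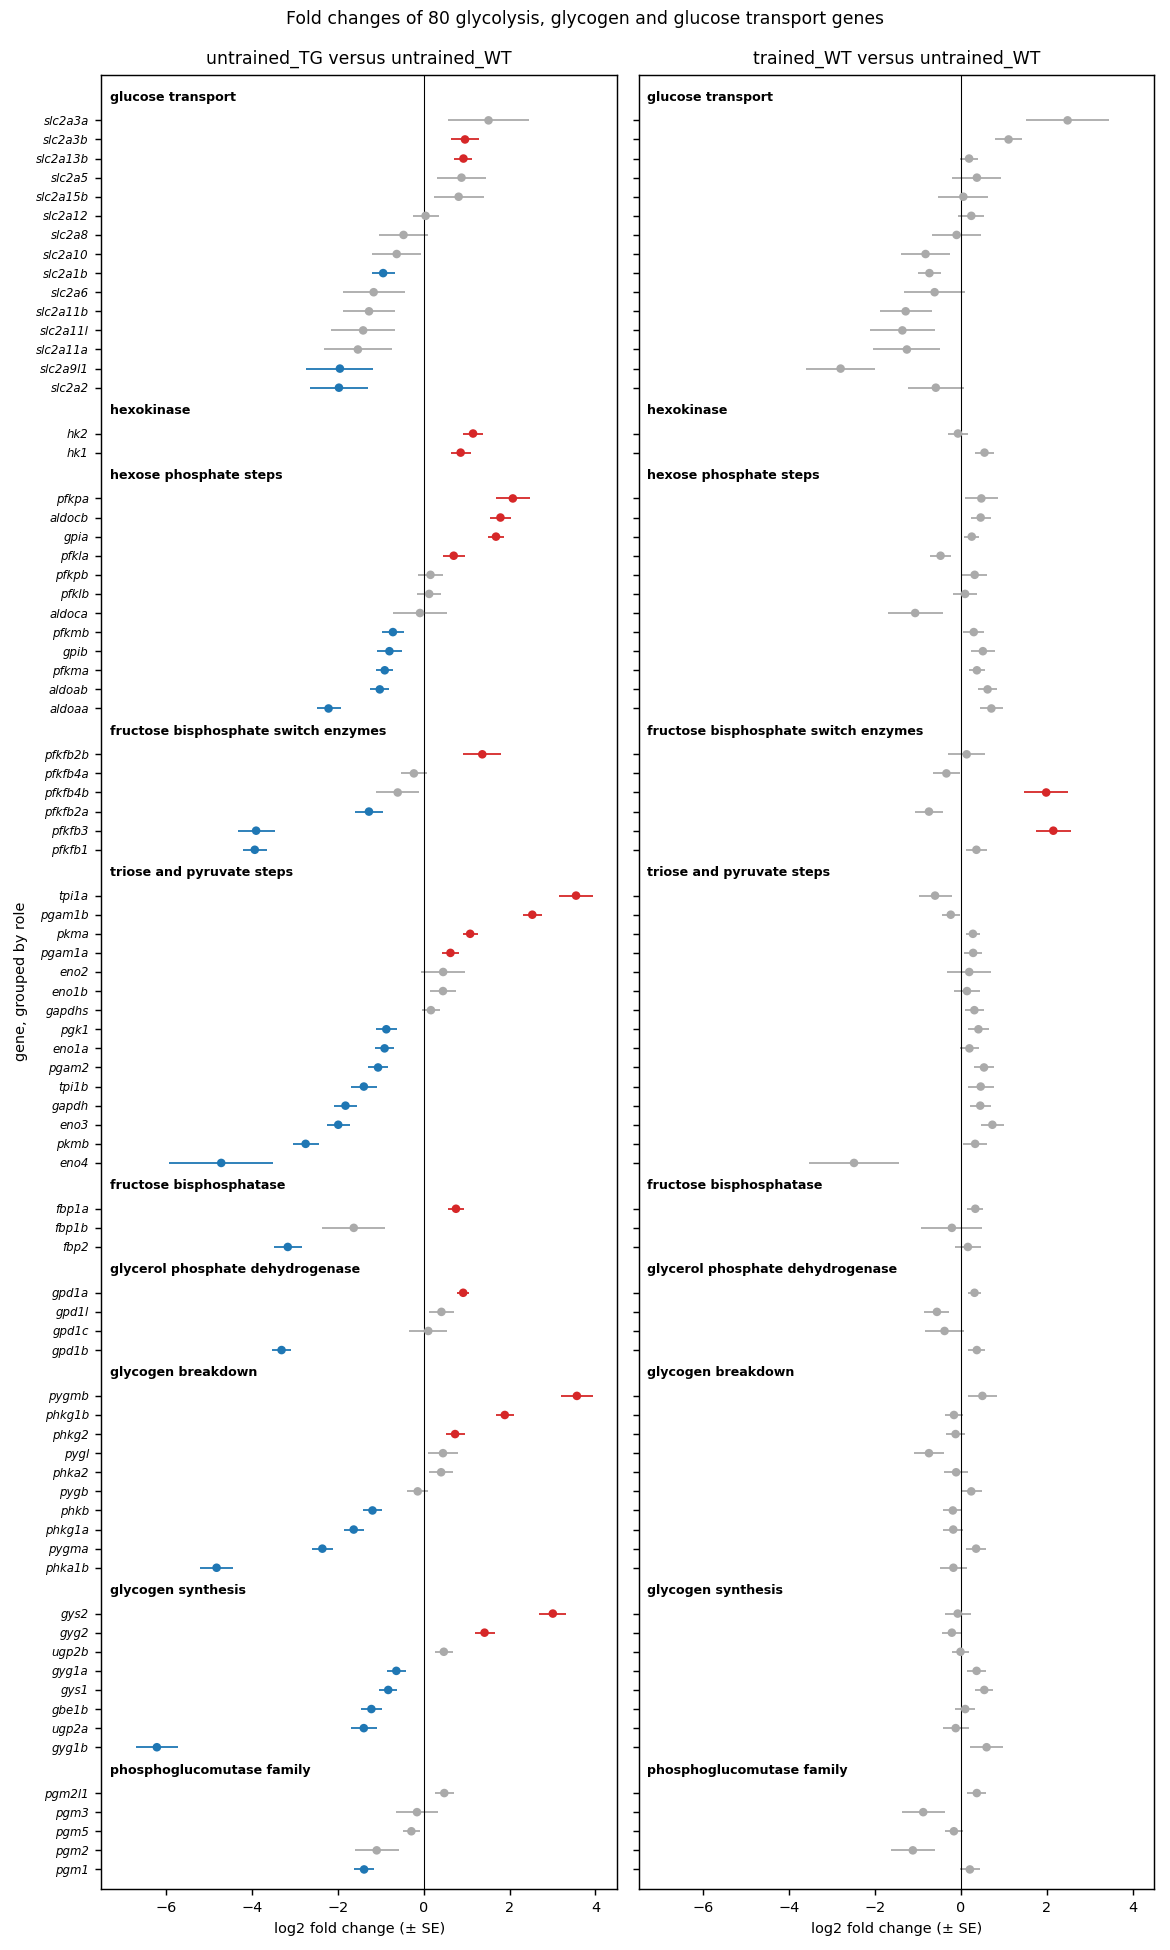
Log2 fold change ± SE of 80 of the 81 tested enzymes and transporters, grouped by role, in untrained_TG (left) and trained_WT (right), each against the same 7 untrained_WT libraries. Red points are called higher and blue points lower at an adjusted p under 0.05, and grey points are not called. On the left 20 are red and 31 blue, and on the right 2 are red.

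Of the 17 slc2a transporter genes, 15 were tested, and 2 were higher (13.3%) and 3 lower (20%) in untrained_TG. Both shares are under those of all genes tested, 18.3% higher and 25.1% lower. The latter are also the background for the counts of each role below. No gene of the set was named slc2a4, the insulin-responsive transporter of mammalian muscle. The gene slc2a12, whose product is also insulin-responsive in mammals, was at 11.7 to 43 CPM (median 25.5) in untrained_WT, 14.2 to 52.4 CPM (median 32.3) in trained_WT and 15.1 to 44.4 CPM (median 22.8) in untrained_TG, and its log2 fold change in untrained_TG was 0.05 ± 0.30 (SE, adjusted p = 0.919). The basal glucose transporter gene slc2a1b was at 14.5 to 79.9 CPM (median 39.5) in untrained_WT, 15.5 to 38.1 CPM (median 28.4) in trained_WT and 17.1 to 30.5 CPM (median 24.5) in untrained_TG. In untrained_TG it fell by 0.94 ± 0.27 (SE, adjusted p = 0.00698), with overlapping ranges. The neuronal-type transporter gene slc2a3b stood at 0.183 to 0.697 CPM (median 0.402) in untrained_WT, 0.439 to 1.32 CPM (median 0.973) in trained_WT and 0.489 to 1.45 CPM (median 0.785) in untrained_TG, a log2 fold change of 0.96 ± 0.31 (SE, adjusted p = 0.0168). The myo-inositol transporter gene slc2a13b was likewise higher, by 0.93 ± 0.21 (SE, adjusted p = 0.0011), with slc2a13b at 1.33 to 2.12 CPM (median 1.6) in untrained_WT and 1.9 to 4.19 CPM (median 2.99) in untrained_TG. With library totals in place of TMM neither was called, slc2a3b being at 0.46 and slc2a13b at 0.45. The fructose and glucose transporter gene slc2a2 fell by 1.97 ± 0.68 (SE, adjusted p = 0.0236), but this call was lost without untrained_WT replicate 7 (log2 fold change -1.35, adjusted p = 0.0976). The urate transporter relative slc2a9l1 fell by 1.95 ± 0.78 (SE, adjusted p = 0.047), a call lost in 8 of 14 alternatives, among them RLE scaling (adjusted p = 0.0522), untrained_WT replicate 7 left out (0.0579) and untrained_TG replicate 1 left out (0.0666). None of the 5 called transporters had ranges that separated the groups.

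Both hexokinase genes, which encode the enzymes that trap glucose in the cell by phosphorylation, were higher in untrained_TG. The gene hk2, the muscle and insulin-regulated form in mammals, was at 9.78 to 38.9 CPM (median 24.9) in untrained_WT, 21.7 to 30.4 CPM (median 25) in trained_WT and 37.5 to 86.8 CPM (median 60.9) in untrained_TG. Only the highest untrained_WT library reached above the lowest transgenic one, and the log2 fold change was 1.15 ± 0.23 (SE, adjusted p = 0.000307). The gene hk1 was at 41 to 187 CPM (median 103) in untrained_WT, 126 to 193 CPM (median 154) in trained_WT and 124 to 274 CPM (median 196) in untrained_TG, with a log2 fold change of 0.86 ± 0.23 (SE, adjusted p = 0.00457) and overlapping ranges.

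Of the 13 genes for the steps from glucose 6-phosphate to triose phosphates, 4 were higher and 5 lower. The gene aldoaa, an aldolase A gene and the second most counted of all 85, was at 2789 to 14234 CPM (median 7190.2) in untrained_WT, 7845 to 19376 CPM (median 14378) in trained_WT and 1408 to 2087 CPM (median 1878) in untrained_TG. All transgenic libraries lay below all wild-type ones, with a log2 fold change of -2.21 ± 0.28 (SE, adjusted p = 1.27e-06). Its duplicate aldoab fell by 1.02 ± 0.22, with aldoab at 462 to 1753 CPM (median 1215) in untrained_WT and 444 to 786 CPM (median 547) in untrained_TG (adjusted p = 0.00062). The aldolase C gene aldocb, a brain form in mammals, was at 7.23 to 16.2 CPM (median 9.91) in untrained_WT and 17.6 to 57.8 CPM (median 39.6) in untrained_TG. All transgenic values were above all untrained_WT values, a log2 fold change of 1.79 ± 0.24 (SE, adjusted p = 2.55e-06). Both muscle-type phosphofructokinase genes were lower, pfkma at -0.91 ± 0.19 (SE, adjusted p = 0.000658) and pfkmb at -0.72 ± 0.25 (SE, adjusted p = 0.0245). The platelet-type gene pfkpa was higher by 2.08 ± 0.40 (SE, adjusted p = 0.000211), but untrained_TG replicate 1 held 52.0 CPM against a group median of 11.4, and without that library the log2 fold change was 1.57 (adjusted p = 0.000392). The liver-type gene pfkla was higher by 0.70 ± 0.25 (SE, adjusted p = 0.0283), a call lost with library totals (0.24, adjusted p = 0.443) and without untrained_WT replicate 7 (0.64, 0.0511). Neither pfklb (0.13) nor pfkpb (0.16) passed the test.

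The PFKFB genes encode bifunctional enzymes that make and remove fructose 2,6-bisphosphate, and 3 of the 6 tested were lower in untrained_TG and 1 higher. The gene pfkfb1 was at 40 to 64.2 CPM (median 58) in untrained_WT, 49.2 to 113 CPM (median 65.2) in trained_WT and 1.27 to 5.99 CPM (median 3.88) in untrained_TG. The highest transgenic library lay far under the lowest wild-type one, at a log2 fold change of -3.93 ± 0.28 (SE, adjusted p = 5.58e-10). The gene pfkfb3, whose product is a strong activator of glycolysis in mammals, was at 36 to 312 CPM (median 58.1) in untrained_WT and 5.06 to 9.19 CPM (median 7.67) in untrained_TG. Again no transgenic library reached the lowest wild-type one, and the log2 fold change was -3.90 ± 0.43 (SE, adjusted p = 2.16e-07). The low-level duplicate pfkfb2a fell by 1.27 ± 0.33 (SE, adjusted p = 0.00345) and its partner pfkfb2b rose by 1.37 ± 0.44 (SE, adjusted p = 0.0163), both with overlapping ranges. The pfkfb2a call was lost with limma-voom (adjusted p = 0.0667). The pfkfb2b call was lost without untrained_WT replicates 3 and 7 (adjusted p = 0.0634). Neither pfkfb4a nor pfkfb4b passed the test, at -0.23 ± 0.31 and -0.60 ± 0.50.

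From triose phosphate to pyruvate, 15 genes were tested, of which 4 were higher and 8 lower. The gene gapdh, which makes the first NADH of the pathway and is often taken as a reference gene, was the most counted of the set, at 9237 to 32428 CPM (median 26570.5) in untrained_WT, 19381 to 44404 CPM (median 30887) in trained_WT and 5171 to 8067 CPM (median 6864) in untrained_TG. It fell by 1.82 ± 0.26 (SE, adjusted p = 5.91e-06) with no overlap. The muscle enolase gene eno3 was at 1324 to 7212 CPM (median 4349) in untrained_WT, 5053 to 10503 CPM (median 7574) in trained_WT and 976 to 1334 CPM (median 1055) in untrained_TG. A single wild-type library, untrained_WT replicate 7 at 1324 CPM, lay inside the transgenic range, and the log2 fold change was -1.99 ± 0.27 (SE, adjusted p = 3.79e-06). The pyruvate kinase gene pkmb, for the last ATP-making step, was at 578 to 3875 CPM (median 1909.9) in untrained_WT, 1965 to 3940.2 CPM (median 2293) in trained_WT and 239.8 to 455 CPM (median 285) in untrained_TG and fell by 2.75 ± 0.30 (SE, adjusted p = 1.73e-07). The other genes of this section that were lower were tpi1b (-1.39), pgam2 (-1.06), eno1a (-0.91), pgk1 (-0.87) and eno4, on the log2 scale.

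The genes of these steps that were higher were tpi1a, pgam1b, pkma and pgam1a. The triose phosphate isomerase duplicate tpi1a was at 0.256 to 1.68 CPM (median 0.556) in untrained_WT, 0.26 to 0.806 CPM (median 0.467) in trained_WT and 4.72 to 13.6 CPM (median 8.89) in untrained_TG. The lowest transgenic library was above the highest wild-type one, and the log2 fold change was 3.55 ± 0.41 (SE, adjusted p = 3.37e-07). The phosphoglycerate mutase gene pgam1b was at 8.21 to 25 CPM (median 17) in untrained_WT, 11.4 to 17.6 CPM (median 13.6) in trained_WT and 63.8 to 148 CPM (median 82.3) in untrained_TG, again without overlap, at 2.53 ± 0.22 (SE, adjusted p = 8.13e-09). The pyruvate kinase duplicate pkma was at 38.1 to 70 CPM (median 52.9) in untrained_WT, 45.5 to 79.3 CPM (median 62.5) in trained_WT and 73.3 to 128 CPM (median 122) in untrained_TG, and rose by 1.08 ± 0.17 (SE, adjusted p = 2.59e-05). The mutase gene pgam1a rose by 0.62 ± 0.20 (SE, adjusted p = 0.0167), with overlapping ranges, but with library totals it was at 0.15 and not called, and without untrained_WT replicates 3 and 7 its adjusted p was 0.0603. The genes eno1b, eno2 and gapdhs did not pass the test, with log2 fold changes of 0.45, 0.45 and 0.17.

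Fructose bisphosphatase runs the phosphofructokinase step backwards, and fbp2 is its muscle form in mammals. The gene fbp2 was at 20.9 to 113 CPM (median 67.4) in untrained_WT, 58.6 to 103 CPM (median 65.9) in trained_WT and 4.11 to 14.6 CPM (median 6.98) in untrained_TG. All transgenic libraries were below all wild-type ones, at -3.16 ± 0.32 (SE, adjusted p = 6.88e-08). The gene fbp1a moved the other way, by 0.75 ± 0.19 (SE, adjusted p = 0.00228), although with library totals it was at 0.18 and not called. Cytosolic glycerol 3-phosphate dehydrogenase, encoded by gpd1 genes, draws dihydroxyacetone phosphate off glycolysis and reoxidises NADH. The gene gpd1b was at 194 to 456 CPM (median 361) in untrained_WT, 326 to 504 CPM (median 439) in trained_WT and 21.2 to 49.1 CPM (median 31.9) in untrained_TG, and fell by 3.31 ± 0.21 (SE, adjusted p = 1.06e-10) with no overlap. Its duplicate gpd1a was at 28 to 56.9 CPM (median 46) in untrained_WT, 41.4 to 66.8 CPM (median 52) in trained_WT and 69.7 to 97.4 CPM (median 78.1) in untrained_TG, and rose by 0.92 ± 0.15 (SE, adjusted p = 2.52e-05), with every transgenic library above every untrained_WT one. The genes gpd1l and gpd1c were at 0.41 ± 0.29 and 0.11 ± 0.45 and did not pass the test.

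In glycogen breakdown 3 of 10 genes were higher and 4 lower. The muscle glycogen phosphorylase gene pygma, which releases glucose 1-phosphate from glycogen, was at 486 to 1963 CPM (median 1567) in untrained_WT, 1206 to 2353 CPM (median 1727) in trained_WT and 187 to 316 CPM (median 273) in untrained_TG. All transgenic libraries were below all wild-type ones, with a log2 fold change of -2.36 ± 0.25 (SE, adjusted p = 1.04e-07). Its duplicate pygmb was at 3.46 to 11.2 CPM (median 9.28) in untrained_WT, 5.55 to 31.8 CPM (median 9.94) in trained_WT and 52.8 to 199 CPM (median 85.9) in untrained_TG, and rose by 3.57 ± 0.38 (SE, adjusted p = 1.09e-07), also with no overlap. Phosphorylase kinase, which activates the phosphorylase, has alpha, beta, gamma and calmodulin subunits. The muscle alpha subunit gene phka1b was at 233 to 643 CPM (median 427) in untrained_WT, 280.3 to 452 CPM (median 433) in trained_WT and 4.21 to 25.1 CPM (median 18.7) in untrained_TG. It fell by 4.82 ± 0.38 (SE, adjusted p = 1.52e-09), with every transgenic library below every wild-type one. The beta subunit gene phkb fell by 1.19 ± 0.23 (SE, adjusted p = 0.000193) and the gamma subunit gene phkg1a fell by 1.63 ± 0.23 (SE, adjusted p = 6.87e-06). The other gamma genes rose, phkg1b by 1.89 ± 0.21 (SE, adjusted p = 2.26e-07) and phkg2 by 0.73 ± 0.22 (SE, adjusted p = 0.00975), the latter at 0.24 and not called with library totals. The alpha subunit gene phka2, the liver form in mammals, was at 0.41, and the brain and liver phosphorylase genes pygb and pygl at -0.14 and 0.45, none of which passed the test.

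In glycogen synthesis 2 of 8 tested genes were higher and 5 lower. Glycogenin starts each glycogen particle, and its gene gyg1b showed the lowest fold change of the set. It was at 30 to 76.4 CPM (median 40.9) in untrained_WT, 42.7 to 128 CPM (median 78.3) in trained_WT and 0.16 to 1.58 CPM (median 0.44) in untrained_TG, a log2 fold change of -6.21 ± 0.49 (SE, adjusted p = 1.76e-09). Its duplicate gyg1a fell by 0.64 ± 0.22 (SE, adjusted p = 0.0242), with gyg1a at 37.8 to 96.1 CPM (median 45.6) in untrained_WT and 22.7 to 49 CPM (median 30) in untrained_TG. That call was lost without untrained_WT replicate 7 (log2 fold change -0.40, adjusted p = 0.102) and without untrained_TG replicate 1 (-0.58, 0.0633). The third glycogenin gene, gyg2, was at 1.31 to 4.81 CPM (median 3.26) in untrained_WT, 1.79 to 4.27 CPM (median 2.57) in trained_WT and 6.84 to 12.7 CPM (median 8.8) in untrained_TG, and rose by 1.42 ± 0.23 (SE, adjusted p = 3.64e-05) without overlap. Muscle glycogen synthase, gys1, was at 155 to 474 CPM (median 368) in untrained_WT, 345 to 611 CPM (median 481) in trained_WT and 137 to 232 CPM (median 191) in untrained_TG. It fell by 0.82 ± 0.21 (SE, adjusted p = 0.00254), with overlapping ranges. The liver-type synthase gene gys2 rose by 3.01 ± 0.32 (SE, adjusted p = 1.04e-07) without overlap, with gys2 at 0.117 to 0.324 CPM (median 0.22) in untrained_WT and 1.18 to 2.95 CPM (median 1.56) in untrained_TG, at an average of 45 counts per library. The branching enzyme gene gbe1b fell by 1.22 ± 0.24 (SE, adjusted p = 0.000238) and the UDP-glucose pyrophosphorylase gene ugp2a fell by 1.39 ± 0.31 (SE, adjusted p = 0.000829), whereas ugp2b was at 0.47 and not called. Phosphoglucomutase, encoded by pgm1, joins glycogen to glycolysis. The gene pgm1 was at 117 to 549 CPM (median 262) in untrained_WT, 304 to 478 CPM (median 331) in trained_WT and 94.5 to 160.2 CPM (median 109) in untrained_TG, and was the 1 called gene of 5 in its family, at -1.39 ± 0.24 (SE, adjusted p = 6.94e-05).

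The names give 23 a and b duplicate pairs, of which 20 had both genes tested and 11 had both called in untrained_TG. In 7 of these 11 the partners were called in opposite directions, and in the other 4 in the same one. Of the 51 enzymes and transporters called, 20 were higher and 31 lower. How many opposite pairs that mix alone would give was not computed. The ratios of the opposite pairs describe pairs picked by these calls, in the same libraries, and add no separate evidence. The ratio of the partners within a library does not depend on scaling. For pygma over pygmb, the log2 ratio of counts was 6.49 to 8.03 in untrained_WT, 5.96 to 8.05 in trained_WT and 0.53 to 2.09 in untrained_TG. For tpi1a over tpi1b it was -12.52 to -8.11, -13.18 to -10.56 and -6.88 to -5.33. The median ratio in untrained_TG minus that in untrained_WT was -5.95 and 6.37 in these pairs. Thus pygmb and tpi1a, which took few of their pair's reads in wild-type muscle, took a far larger part in transgenic muscle.

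The shift was 4.10 log2 units for gpd1a over gpd1b, 3.92 for pkma over pkmb, 2.36 for gpia over gpib, -3.51 for phkg1a over phkg1b and -2.85 for pfkfb2a over pfkfb2b. In each pair but the last, all untrained_TG ratios lay outside the untrained_WT range. The isomerase genes, which interconvert glucose and fructose 6-phosphate, were at 18.6 to 42.8 CPM (median 30.1) and 128 to 528 CPM (median 237) in untrained_WT, for gpia and gpib in turn, and at 77.6 to 137 CPM (median 94.2) and 109 to 250.0 CPM (median 142) in untrained_TG. The fold changes were 1.68 ± 0.18 (SE, adjusted p = 1.11e-07) for gpia and -0.80 ± 0.29 (SE, adjusted p = 0.0287) for gpib, the latter lost without untrained_TG replicate 7 (adjusted p = 0.0540). Pairs that moved together could shift as well: gyg1a over gyg1b went from a median of 0.21 in untrained_WT to 6.05 in untrained_TG, with no overlap. In trained_WT the medians of the 7 opposite pairs differed from untrained_WT by -0.71 to 0.38 log2 units. These pairs were chosen by their calls in untrained_TG, and other pairs moved more with training. The ratio of pfkfb4a over pfkfb4b shifted by -2.25 in trained_WT and 0.15 in untrained_TG. For slc2a3a over slc2a3b, both with few reads, the shifts were 1.47 and -2.09. Reads that align to more than 1 place came to 9.07% ± 1.05 in untrained_WT and 6.65% ± 0.908 in untrained_TG (SD, n = 7), and how duplicates share reads was not tested.

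**Figure D3:**
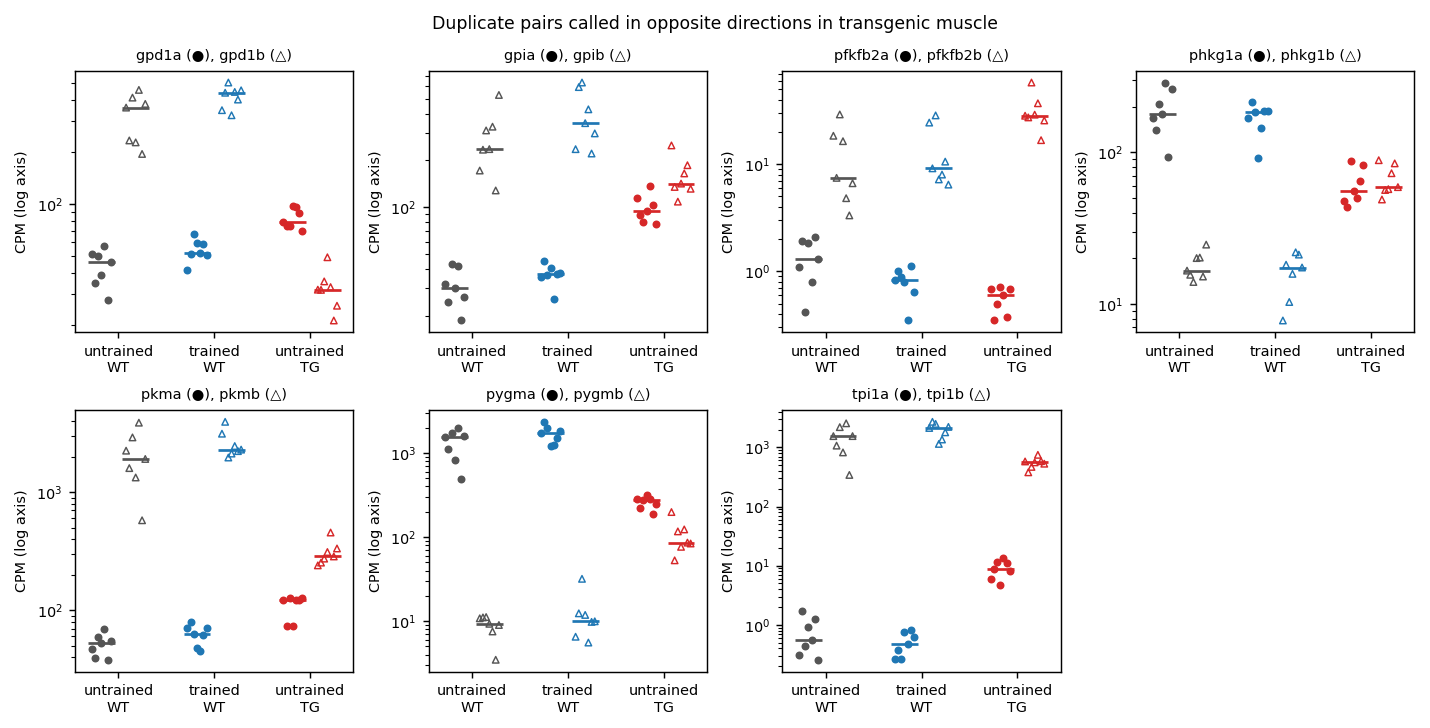
CPM (log axis) of both genes of the 7 duplicate pairs called in opposite directions, 1 mark per library (7 per group): filled circles for the a gene, open triangles for the b gene, bars at medians. In pygma and pygmb, gpd1a and gpd1b, tpi1a and tpi1b, and pkma and pkmb the partners lie far apart in both wild-type groups. Among these pairs, gpd1a and gpd1b change order in untrained_TG and the others lie closer. The partners pfkfb2a and pfkfb2b lie further apart, with a median log2 ratio of -2.60 in untrained_WT and -5.45 in untrained_TG. For phkg1a over phkg1b the median is 3.35 in untrained_WT and -0.16 in untrained_TG. The gap of tpi1a and tpi1b stays wide there, at a median log2 ratio of -5.78. Heights of partners are not per gene length.

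Direction differed with the number of reads a gene averaged over all 21 libraries. As 14 of these are wild-type, a gene lower in untrained_TG tends to rank higher. The ranking is therefore not independent of direction. All 15 of the enzyme and transporter genes with the most reads were called lower in untrained_TG. Of the next 15, 4 were higher and 9 lower, and of the remaining 51, 16 were higher and 7 lower. Among the 12 genes whose reference description has the word muscle, 9 were lower and 3 higher (pygmb, phkg1b and pkma). Among the 9 whose description names another tissue or cell, such as liver, brain or platelet, 3 were higher (pfkla, pfkpa and phkg2), none was lower, and 6 were not called. For all these counts the background is 18.3% higher and 25.1% lower among all genes tested. That background is not matched for reads. Of all 3974 genes averaging at least 1000 counts, 63.6% were called in either direction, and their split by direction was not counted. Both groupings were made after the values were seen and carry no test.

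The fall of the most counted genes ran beside that of the fast fibre markers. The summed CPM of the 85 enzymes and transporters divided by that of the fast fibre markers was 0.287 to 0.422 in untrained_WT (median 0.324), 0.377 to 0.546 in trained_WT (median 0.410) and 0.353 to 0.544 in untrained_TG (median 0.462). The transgenic range of this ratio overlapped both others. The genes gapdh, aldoaa and eno3 weigh most in its numerator. Across the 14 wild-type libraries, the correlation of log2 CPM with the fast fibre marker sum was 0.929 for pgk1, 0.921 for pygma, 0.893 for gapdh and 0.103 for pfkma. With the slow fibre marker sum it was positive as well, at 0.627, 0.617, 0.501 and 0.374 in turn. Over all 21 libraries, where the difference between the groups enters, the values with the fast fibre marker sum were 0.863, 0.980, 0.965 and 0.783 in turn. Those with the slow fibre marker sum were then negative, at -0.500, -0.812, -0.772 and -0.711. Within the 7 transgenic libraries, the correlation with the fast fibre marker sum was 0.529, 0.07, 0.188 and 0.492 for the same genes. These genes come from a longer list of lower genes. Over that list the transgenic values ran from -0.236 for eno3 to 0.682 for pkmb. The points share library and scaling, and these values carry no test. The part of fibre composition in the fold changes was not tested.

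Trained wild-type muscle was compared with untrained wild-type muscle to see the effect of chronic exercise, against the same untrained_WT libraries. Few of these genes were called: 3 of 85 (3.53%), against 2.95% of all genes tested. Of the 3, 2 were higher (background 2.25%) and 1 lower (background 0.702%). The enzymes among the 3 were the PFKFB genes pfkfb3 and pfkfb4b, both higher, and the third was pygo2, a Wnt pathway gene matched by name. The median log2 fold change of the 81 enzymes and transporters was 0.16, and that of all genes was -0.07. Of the 15 genes with the most reads, 14 had a log2 fold change above 0, with a median of 0.45, and none of the 15 was called. Of the next 15, 11 were above 0, and of the other 51, 21. The share of all genes above 0 was not counted. Many of the 15 varied with the fast fibre marker sum across wild-type libraries (correlation 0.893 for gapdh, but 0.103 for pfkma). They are therefore not 15 separate observations.

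The gene pfkfb3 was at 36 to 312 CPM (median 58.1) in untrained_WT and 269 to 649 CPM (median 452) in trained_WT. The highest untrained library, replicate 6, lay inside the trained range, and the other 6 lay below it. The log2 fold change was 2.15 ± 0.40 (SE, adjusted p = 0.00373). The gene pfkfb4b, which encodes a bifunctional enzyme induced by low oxygen in mammals, was at 14.1 to 154 CPM (median 28.9) in untrained_WT and 91.7 to 409 CPM (median 229) in trained_WT. Its fold change was 1.98 ± 0.51 (SE, adjusted p = 0.0376), with untrained_WT replicates 5 and 6 inside the trained range. The pfkfb4b call was lost without untrained_WT replicate 7 (adjusted p = 0.0670). The other PFKFB genes were not called, with log2 fold changes between -0.75 for pfkfb2a and 0.36 for pfkfb1.

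**Figure D4:**
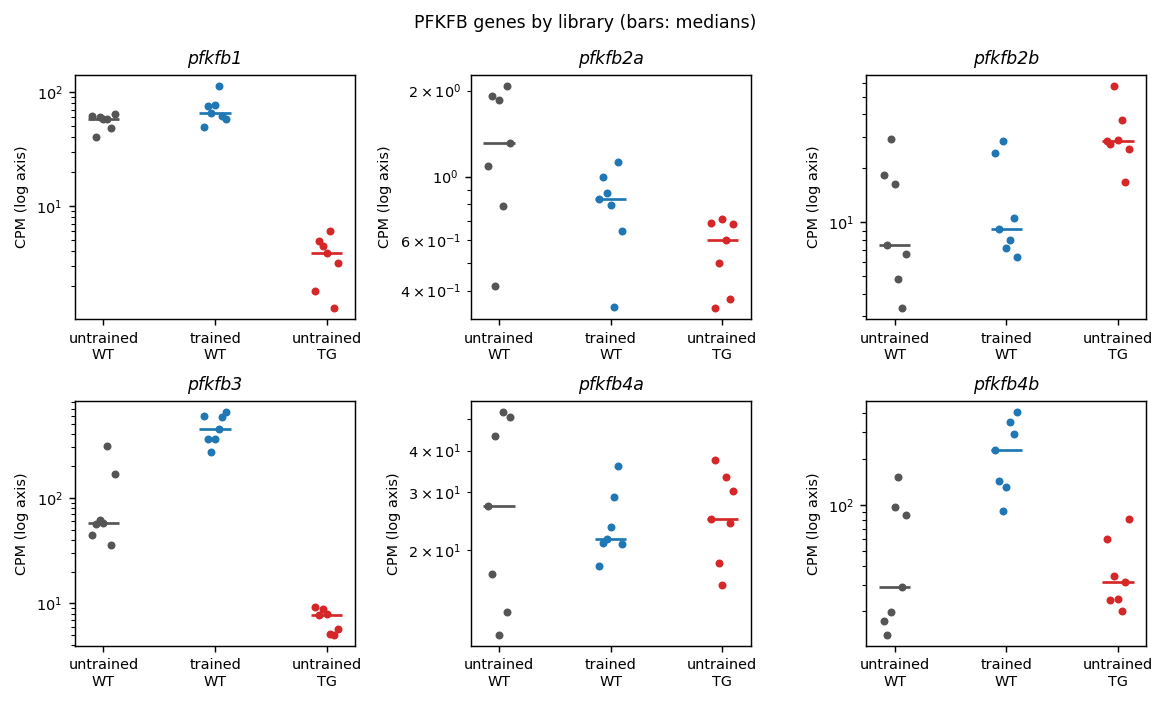
CPM (log axis) of the 6 tested PFKFB genes, 1 point per library (7 per group) with a bar at the group median. In pfkfb3 the medians are 58.1, 452 and 7.67 CPM in untrained_WT, trained_WT and untrained_TG, and in pfkfb4b 28.9, 229 and 31.1.

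Next by p-value came the transporter genes slc2a3b, at 1.11 ± 0.31 (SE, adjusted p = 0.0589), and slc2a9l1, at -2.80 ± 0.80 (SE, adjusted p = 0.0611), and then aldoab, at 0.62 ± 0.22 (SE, adjusted p = 0.12); none of these passed the test. The gene slc2a3b stood at 0.439 to 1.32 CPM in trained_WT against 0.183 to 0.697 in untrained_WT. DESeq2 called slc2a3b (adjusted p = 0.0131) and slc2a9l1 (0.0104) as well. Not called either, with fold changes above 0, were eno3 (0.73 ± 0.26, adjusted p = 0.131), aldoaa (0.71 ± 0.27, 0.15) and gys1 (0.54 ± 0.20, 0.149). Glycogen breakdown genes lay near 0, with a median of -0.15 and a range of -0.75 to 0.50 on the log2 scale. The gene pygo2 was at 2.4 to 5.2 CPM (median 2.67) in untrained_WT and 1.22 to 1.74 CPM (median 1.6) in trained_WT, at -0.92 ± 0.19 (SE, adjusted p = 0.00956). It was the 1 gene of the set whose groups did not overlap downward (background 0.348%), and none did upward (background 0.992%).

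Transgenic untrained muscle was also set against trained wild-type muscle. Here 48 of 85 genes were called (56.5%), against 41.6% of all genes, with 20 higher (background 19.2%) and 28 lower (background 22.5%). The groups did not overlap for 11 higher (background 8.22%) and 24 lower genes (background 11.5%). The gene pfkfb3 differed most among the PFKFB genes, at -6.05 ± 0.48 (SE, adjusted p = 2.14e-09), where untrained_TG had been -3.90 and trained_WT 2.15 against untrained_WT. The genes called here but not against untrained_WT were pfkfb4b at -2.58 ± 0.53 (SE, adjusted p = 0.000393), the liver phosphorylase gene pygl (2.29-fold higher, adjusted p = 0.00864), gpd1l at 0.98 ± 0.29 (SE, adjusted p = 0.00998) and pygo2 at 1.07 ± 0.19 (SE, adjusted p = 0.000104). With library totals gpd1l was at 0.76 and not called (adjusted p = 0.113). Of the hexokinases, hk2 was higher by 1.22 ± 0.23 (SE, adjusted p = 0.00016), and hk1 did not pass the test at 0.32 ± 0.23.

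A set of 6 genes varied widely between libraries of the same group: fbp1b, the liver-type bisphosphatase gene, and the transporter genes slc2a2, slc2a9l1, slc2a11a, slc2a11b and slc2a11l. They were picked after their values were seen. The gene fbp1b was at 1.26 to 28.4 CPM (median 3.8) in untrained_WT, 0.381 to 18.5 CPM (median 6.76) in trained_WT and 0.887 to 7.06 CPM (median 2.63) in untrained_TG. In untrained_WT its level was highest in replicates 5 and 7, at 28.4 and 24.1 CPM, and in trained_WT it was lowest in replicate 2. The pairwise correlations of log2 CPM across all 21 libraries were 0.651 to 0.961, with a median of 0.881. Within the 14 wild-type libraries they were 0.687 to 0.975 and within the 7 transgenic ones 0.581 to 0.947. The mean of the 6 genes correlated at 0.570 with the skin marker sum, 0.381 with the liver marker sum and 0.511 with the germ line marker sum over 21 libraries, which share scaling. Within the 14 wild-type libraries these were 0.525, 0.423 and 0.467, and the values for the fast and slow fibre marker sums were -0.602 and -0.593. Over all 21 libraries the fast and slow fibre values were -0.007 and -0.373. Skin markers summed to 69.5 to 828 CPM in untrained_WT and liver markers to 0.986 to 79.6 CPM, and the part of such tissue in these genes was not tested. Only slc2a2 and slc2a9l1 of the 6 were called in untrained_TG.

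**Figure D5:**
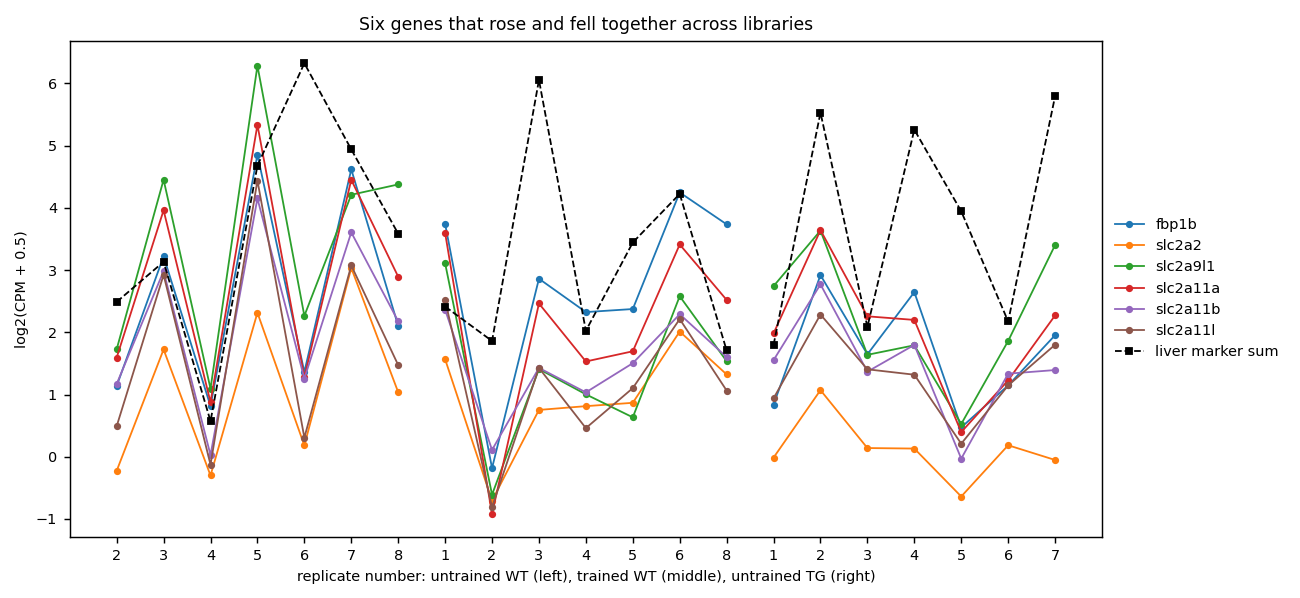
Log2(CPM + 0.5) of 6 genes in each of the 21 libraries, with the summed liver markers as a dashed black line; lines join libraries of 1 group for legibility. Of the 6 genes, 5 peak in untrained_WT replicate 5 and slc2a2 in replicate 7, and among trained_WT libraries all 6 are lowest in replicate 2, with pairwise correlations of 0.651 to 0.961.

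The enolase relative eno4, which serves sperm motility in mice, was at 0.0778 to 6.83 CPM (median 0.844) in untrained_WT, 0 to 1.16 CPM (median 0.0685) in trained_WT and 0 to 0.181 CPM (median 0.0595) in untrained_TG and fell by 4.71 ± 1.21 (SE, adjusted p = 0.00311). Its highest levels were 6.83 CPM in untrained_WT replicate 3 and 4.78 in replicate 7, the libraries with the highest germ line marker sums. Without both, the log2 fold change was -2.63 and no longer called (adjusted p = 0.0611). The transporter gene slc2a3a was at 0.0776 to 0.83 CPM (median 0.175) in untrained_WT, 0.633 to 3.11 CPM (median 1.47) in trained_WT and 0 to 4.85 CPM (median 0.0595) in untrained_TG, with its highest value in untrained_TG replicate 1, and was not called at 1.51 ± 0.94 (SE, adjusted p = 0.204).

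Genes that feed or drain the pathway were taken from 8 lists holding 96 further tested genes. In untrained_TG 26 were higher and 29 lower (background 18.3% and 25.1% of all genes tested), and in trained_WT 3 were higher and 2 lower (background 2.25% and 0.702%). The same backgrounds apply to the counts of single lists. At the pyruvate branch, the pyruvate dehydrogenase kinase gene pdk3b, whose product switches pyruvate oxidation off, was at 22.9 to 56 CPM (median 49.1) in untrained_WT and 0.654 to 1.81 CPM (median 1.13) in untrained_TG, a log2 fold change of -5.10 ± 0.26 (SE, adjusted p = 3.71e-12). The E1 subunit gene pdha1a of pyruvate dehydrogenase rose by 1.71 ± 0.15 (SE, adjusted p = 1.04e-08). The list of pyruvate oxidation genes was split, with 7 of 15 tested genes higher and 6 lower. Of the lactate list, ldha, for the form known to favour lactate, was at -3.85 and ldhbb at 5.52. The malate dehydrogenase genes mdh1aa and mdh2 of the NADH shuttle rose by 3.15 ± 0.21 and 1.22 ± 0.15, and 5 of 10 shuttle genes were higher and none lower. The gene bpgm, for the enzyme that makes 2,3-bisphosphoglycerate from a glycolytic intermediate, was at 45.6 to 103 CPM (median 70.4) in untrained_WT, 49.1 to 83.4 CPM (median 58.2) in trained_WT and 658 to 955 CPM (median 693) in untrained_TG, with no overlap and a log2 fold change of 3.33 ± 0.17 (SE, adjusted p = 4.03e-12). The fructose 2,6-bisphosphatase gene tigarb rose by 1.53 ± 0.23.

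Among 18 regulators of glycogen metabolism, 3 were higher and 8 lower. The laforin gene epm2a, a glycogen phosphatase, fell by 1.71 ± 0.18 (SE, adjusted p = 1.29e-07), and the phosphatase targeting subunit gene ppp1r3db fell by 2.17 ± 0.33 (SE, adjusted p = 1.53e-05). In gluconeogenesis the glucose 6-phosphate transporter gene slc37a4b fell by 1.89 ± 0.18 (SE, adjusted p = 2.2e-08) and g6pc3 fell by 1.15 ± 0.21 (SE, adjusted p = 0.000104). In the pentose phosphate list tkta rose by 3.15 ± 0.58 and h6pd rose as well, with h6pd at 1.44 to 3.98 CPM (median 2.25) in untrained_WT and 3.67 to 7.62 CPM (median 5.31) in untrained_TG (adjusted p = 0.000262), and of the regulators of glucose use mlx fell by 0.88 ± 0.16 and trib3 fell by 1.33 ± 0.29. The 5 genes called in trained_WT, named after their values were seen, were pdk2b at 2.37 ± 0.36, the glucose 6-phosphatase gene g6pcb at 2.97 ± 0.68 (with at most 1.25 CPM in any library), the transcription factor gene klf15 at 1.39 ± 0.32, the pyruvate dehydrogenase phosphatase gene pdp1 at -1.06 ± 0.29 and the lactate exporter gene slc16a3 at -1.13 ± 0.27. The kinase gene pdk2b stood at 85.7 to 632 CPM (median 267) in untrained_WT and 1438 to 2397 CPM (median 1931) in trained_WT, without overlap, and the highest of its 7 untrained_TG libraries held 212 CPM.

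Of the genes matched by name only, pgam5 fell by 0.87 ± 0.16 (SE, adjusted p = 0.000174) in untrained_TG, pygo1 fell by 2.02 ± 0.53 (SE, adjusted p = 0.00371) and pkmyt1 was higher by 0.90 ± 0.14 (SE, adjusted p = 2.95e-05), but not called with library totals (0.39, adjusted p = 0.0815), while pygo2 was at 0.16 and not called. In the authors' deposited table, 21 of the genes examined here were higher and 33 lower in untrained_TG, and 3 were higher and 3 lower in trained_WT, at their adjusted p under 0.05. The share of all genes called in the authors' tables was not counted here. The DESeq2 fit made here called 8766 of 18947 genes in untrained_TG and 1303 in trained_WT.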

How the data were processed

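Raw counts of reads per gene were deposited by the authors and made with STAR 2.4.0i and HTSeq 0.9.1 on the zebrafish build GRCz10, per the submitters' processing notes. Neither the strand setting nor the annotation release is given in the sources used here: values of overlapping genes, antisense genes and near-identical duplicates are uncertain. The authors' deposited tables also hold log2 fold changes, p-values and a test statistic (a score), of which only fold changes and adjusted p-values were read, and normalised values per library (a signal) that were not used. The submitters' processing notes name DESeq2.

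From the counts, each contrast was fitted in edgeR 4.0.16 by quasi-likelihood (R 4.3.3, F test, TMM, filterByExpr by group, 21 libraries in 1 fit, group only). P-values were adjusted by Benjamini-Hochberg over all 18947 genes, and an adjusted p under 0.05 is a call. A standard error is the log2 fold change over the square root of F, and folds are on the log2 scale. Log2 ratios of duplicates used counts plus 0.5. The tests were planned for 24 libraries. Replicate 1 of untrained_WT, 7 of trained_WT and 8 of untrained_TG were not analysed here. Libraries of a group differed from each other by more than sampling noise. Rows that name no gene took no part, and reads without a feature came to 5.02% to 10.0% of all reads.

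The genes, lists and tests were chosen with earlier results of these data known. Of genes averaging at least 50 counts, the text names the 2 called with the smallest p per role and direction in untrained_TG, both partners of opposite pairs, the 6 smallest p in trained_WT, those called against trained_WT alone, and 2 per further list. Other genes of the set were named after their values were seen, to account for every member of a role. A gene of the set enters the counts and sums but is not reported here by name. Alternatives were DESeq2 1.42.0, limma-voom 3.58.1, other scalings, no filter, only the groups compared, the replicate block and libraries left out. The fit was tested on simulated data with planted changes.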

Additional observations from a re-analysis of the deposited data

Results flagged for a closer look

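A total of 126 sets of 7 libraries were examined for a single library far from the other 6, with Dixon's critical value of 0.568. Each set was 1 of 41 named genes in 1 group, or the summed share of counts of the enzymes and transporters in 1 group. About 1 in 20 sets is flagged by chance, and 9 were flagged here. Levels are in CPM.

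In untrained_TG, fbp2 stood at 14.61 in replicate 1, with the next library at 8.616, and slc2a2 at 1.6 in replicate 2, with the next at 0.6361. In trained_WT, pfkfb1 stood at 113.4 in replicate 5 (next 76.29), pgm1 at 478.2 in replicate 2 (next 367.2) and pygmb at 31.84 in replicate 3 (next 12.37). The gene pygo2 was lowest at 1.223 in trained_WT replicate 4 (next 1.518) and highest at 5.198 in untrained_WT replicate 3 (next 2.824). In untrained_WT replicate 5, pgam5 was low at 10.78 (next 19.36) and slc2a9l1 high at 77.48 (next 21.39).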

How the results depend on the processing

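In untrained_TG against untrained_WT, the count of called genes ranged from 48 to 55 over 14 alternatives (main value 54), with 14 to 23 higher and 28 to 40 lower. With library totals alone the median of all genes moved from -0.13 to -0.64 and the calls divided into 14 higher and 40 lower. Of the calls over all genes, 15.9% were then higher, against 42.1% in the main fit. In this set these shares were 25.9% and 38.9%. The replicate numbers did not pair the libraries: correlations of same-numbered deviations ranged from -0.266 to 0.0794 for untrained_TG with untrained_WT, and 1 of 6 libraries correlated best with its own number. With the replicate block, 20 were higher and 28 lower, and 7270 of all 18947 genes tested were called. Each of the 54 called genes was refitted in all 14 alternatives, and 38 kept their call in every one. Of the other 16, slc2a9l1 lost its call in 8 alternatives, gyg1a in 6, slc2a2 and pfkla in 5 each, slc2a3b, gpib, pgam1a and eno4 in 2 each, and fbp1a, slc2a13b, pkmyt1, phkg2, slc2a1b, pgk1, pfkfb2a and pfkfb2b in 1 each. Under the block the losses were slc2a3b, slc2a1b (adjusted p = 0.0715), slc2a2, gpib, pgk1 (0.0565) and slc2a9l1, and with library totals fbp1a, slc2a13b, slc2a3b, pkmyt1, pfkla, pgam1a and phkg2. With limma-voom slc2a2, slc2a9l1, gyg1a, pfkfb2a (0.0667) and eno4 (0.0532) were lost. Without untrained_WT replicates 3 and 7, pfkfb2b (0.0634) and eno4 (0.0611) were among the losses, and without untrained_TG replicate 7 gpib (0.0540). Against trained_WT, 46 of 48 called genes kept their call, and gpd1l and slc2a13b lost it with library totals. None of these called genes changed its direction in the alternatives. Genes not called, and the further lists gene by gene, were not refitted this way, apart from slc2a3b, slc2a9l1 and aldoab in trained_WT. The cause of these losses was not tested.

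In trained_WT, with a main count of 3, library totals called 5 (3 lower), DESeq2 6 (3 higher, 3 lower) and limma-voom 7 (4 higher, 3 lower). Calls over all 18947 genes tested rose too, from 559 in the main fit to 1128, 1303 and 978 in turn. Leaving out untrained_WT replicate 7, alone or with replicate 3 or 5, left 1 higher and 2 lower. Over all genes tested these 3 fits called 444, 262 and 591 in turn. Over all alternatives that leave out libraries, 1 to 3 were higher and 1 to 2 lower, with 3 higher without untrained_TG replicate 1. The call of pfkfb4b was lost without replicate 7 (adjusted p = 0.0670), without 3 and 7 (0.142), without 5 and 7 (0.0649) and with only the groups compared (0.0780). Further pathway genes called were 2 with only the groups compared, 3 without replicates 3 and 7 and 10 with DESeq2, against 5. Over all genes tested these settings called 375, 262 and 1303, against 559. The share of counts in untrained_TG was 2.41% without mitochondrially encoded genes in the total, since these take 46.8% of its counts.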
